A study of Mus musculus with 18 samples.

Results

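The pericentral Wnt target genes are a set of 10 mouse genes that were chosen by symbol: Glul, Oat, Slc1a2, Slc1a4, Rhbg, Axin2, Nkd1, Znrf3, Lgr5 and Tbx3. All 10 were found among the 19057 genes of the deposited liver table. Poly(A) RNA of whole livers from male ICR mice of 10 weeks was sequenced in 18 libraries, 3 in each of 6 groups. Con mice had a regular diet and saline, and HS mice were fed a high-fat diet starting at 3 weeks and had 1 injection of streptozotocin (STZ, a toxin of the insulin-producing beta cells) at 85 mg/kg at 5 weeks. A10-FMT and Con-FMT mice had the same diet and STZ and were then given gut microbiota by mouth until 7 weeks of age. The donors of A10-FMT had received alginate oligosaccharide (AOS, short sugar chains from brown algae) at 10 mg/kg, and the donors of Con-FMT had received water. In both cases the small-intestine content of the donors was pooled, so that each transplant came from 1 pool. A10 and HS+A10 were placed by the labels, which give AOS at 10 mg/kg without and with the diet and STZ. HS, HS+A10, A10-FMT and Con-FMT thus share the diet and STZ, and both comparisons of a transplant with HS share the HS libraries.

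Hepatocytes around the central vein of the liver lobule receive Wnt ligands and R-spondin from the endothelium of that vein. Wnt binding to Frizzled and LRP receptors stops the destruction of beta-catenin, which then works with TCF factors to switch on target genes. Pericentral hepatocytes are known for capturing ammonia as glutamine, and several of these targets serve that task, while other targets are brakes or boosters of the Wnt signal itself. Glul (glutamine synthetase) joins ammonia to glutamate, Oat (ornithine aminotransferase) feeds ornithine toward glutamate, Slc1a2 takes up glutamate, Slc1a4 carries neutral amino acids, and Rhbg carries ammonia. Axin2 and Nkd1 are intracellular feedback inhibitors, Znrf3 removes Frizzled receptors from the membrane, Lgr5 is a receptor for R-spondins, and Tbx3 is a transcription factor.

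The gene spans in RefSeq on GRCm38.p6 are given here as genome positions. Glul lies at chr1:153899929-153909723, Slc1a2 at chr2:102658239-102790784, Rhbg at chr3:88242874-88254739, Tbx3 at chr5:119670534-119684724 and Oat at chr7:132557475-132576398. Nkd1 lies at chr8:88521342-88594887, Lgr5 at chr10:115450314-115587780, Znrf3 at chr11:5276329-5444847, Slc1a4 at chr11:20302180-20332713 and Axin2 at chr11:108917828-108950783. A promoter entry was found for 6 members (Glul, Oat, Slc1a2, Slc1a4, Axin2 and Nkd1); Rhbg, Znrf3, Lgr5 and Tbx3 are named only. The windows of 5 members are shown, because Glul, Oat and Slc1a2 were the nitrogen-handling members with the largest differences from Con in HS, and Axin2 and Nkd1 were low in Con-FMT. Each holds the 250 bases before the start listed by RefSeq, on the strand of the gene. They are chr1:153899679-153899928 (plus strand) for Glul, chr7:132576399-132576648 (minus strand) for Oat, chr2:102706188-102706437 (plus strand) for Slc1a2, chr11:108920099-108920348 (plus strand) for Axin2 and chr8:88527383-88527632 (plus strand) for Nkd1. The starts listed for Slc1a2, Axin2 and Nkd1 lie inside the full spans of those genes. Capitals mark a match to a motif of the TCF/LEF factors.

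Glul: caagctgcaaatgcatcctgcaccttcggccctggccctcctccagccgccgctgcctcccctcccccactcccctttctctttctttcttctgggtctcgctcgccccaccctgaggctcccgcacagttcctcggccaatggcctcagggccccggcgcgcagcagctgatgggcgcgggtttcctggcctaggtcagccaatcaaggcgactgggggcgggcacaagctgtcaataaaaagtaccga
Oat: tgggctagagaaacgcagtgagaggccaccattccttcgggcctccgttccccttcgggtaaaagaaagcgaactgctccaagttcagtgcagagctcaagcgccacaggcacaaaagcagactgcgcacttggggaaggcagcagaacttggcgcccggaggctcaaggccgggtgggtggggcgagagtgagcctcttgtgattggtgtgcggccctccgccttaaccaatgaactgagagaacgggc
Slc1a2: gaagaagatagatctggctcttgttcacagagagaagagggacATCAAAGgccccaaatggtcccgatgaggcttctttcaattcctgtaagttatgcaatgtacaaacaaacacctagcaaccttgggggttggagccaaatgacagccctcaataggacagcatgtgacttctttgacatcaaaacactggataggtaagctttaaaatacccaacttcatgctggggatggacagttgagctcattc
Axin2: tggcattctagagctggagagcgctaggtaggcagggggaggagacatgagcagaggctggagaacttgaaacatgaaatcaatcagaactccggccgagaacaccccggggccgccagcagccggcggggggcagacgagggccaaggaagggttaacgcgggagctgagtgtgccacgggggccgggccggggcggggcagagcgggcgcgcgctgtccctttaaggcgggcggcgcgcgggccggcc
Nkd1: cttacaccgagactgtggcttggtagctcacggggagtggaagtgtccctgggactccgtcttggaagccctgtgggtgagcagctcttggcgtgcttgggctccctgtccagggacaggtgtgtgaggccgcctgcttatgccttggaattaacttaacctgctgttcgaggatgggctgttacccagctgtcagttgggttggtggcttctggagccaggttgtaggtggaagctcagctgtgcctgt

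The motif searched was CTTTGAA, with the variant CTTTGAT, the variant CTTTGTA and the variant CTTTGTT, on both strands. Of the 6 member windows, 1 held a match: that of Slc1a2 reads ATCAAAG, the reverse complement of CTTTGAT, and starts 207 bases before the listed start. Among all 32851 windows of the same length, 14.8% held at least 1 of the motifs. These are matches of letters in a short window and not measured binding sites.

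Levels are given in RPKM (reads scaled by the length of the gene and by the size of the library), which corrects for length, so that members can be set beside each other. By their mean over the 18 libraries, the members spanned from abundant to scarce. Glul averaged 229.5 RPKM and Oat 215.9 RPKM, above 98.1% and 98.0% of all genes, respectively. Slc1a2 averaged 19.4, Rhbg 9.95 and Tbx3 6.37 RPKM. Axin2 (1.84), Slc1a4 (1.69), Znrf3 (1.27), Nkd1 (1.11) and Lgr5 (0.947) were near 1 RPKM, where single reads weigh more and the values are less precise. Lgr5 alone fell below the minimum mean of 1 RPKM set for testing, so that 9 of the 10 members were among the 10204 genes tested, and Lgr5 was read from a fit without that minimum.

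Some libraries stand apart. Con-FMT replicate 3 held a summed 23793 RPKM of 15 pancreatic acinar genes (3.39% of its RPKM total), against 14.1 to 50.4 RPKM in the other libraries, so the tests of Con-FMT were also run without it. Con replicate 3 and A10 replicate 3 lay between the other 2 libraries of their groups for 95.5% and 94.1% of the genes on which those 2 differed by over 0.5 on the log2 scale, while this share was 24.0 to 72.9% for the other 16 libraries. Among the 10 members, Con replicate 3 lay between (or level with) its partners for 8 and A10 replicate 3 for 5. Hepatocyte markers were high in every library, with 6 of them summing to 31498 to 54485 RPKM. The libraries of a group are separate samples by their labels, but nothing used here says that each came from its own animal, so p-values measure only the spread between these samples.

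A moderated F test across the 6 groups (limma, Benjamini-Hochberg adjusted) called 7 of the 9 tested members at an adjusted p under 0.05, against 56.1% of all tested genes; Rhbg (adjusted p = 0.353) and Znrf3 (adjusted p = 0.111) were not called. Lgr5 was called in the fit without the minimum (adjusted p = 8.77e-04). The plot of members by library shows that they did not share 1 profile.

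**Figure D1:**
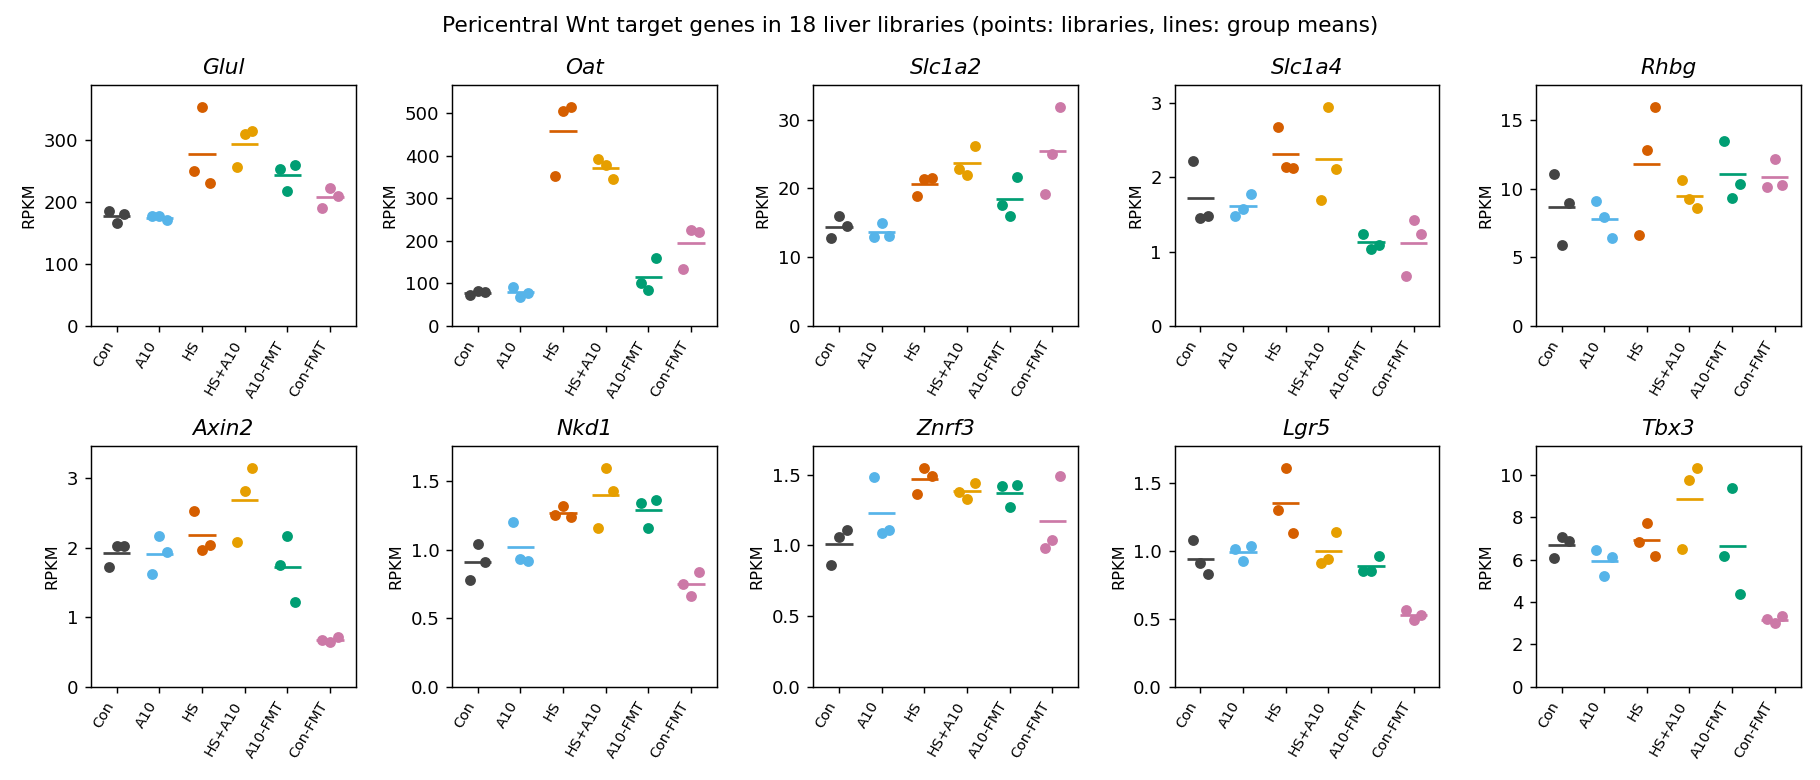
Level of each of the 10 members (RPKM, axes from 0) in the 18 liver libraries, with 3 points per group and a line at the group mean. Oat stands at 353 to 514 RPKM in HS and 344 to 393 RPKM in HS+A10 against 72.8 to 81.6 RPKM in Con, and the 3 Con-FMT libraries are the lowest of all for Axin2 (0.64 to 0.71 RPKM) and Tbx3 (2.99 to 3.32 RPKM).

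The first comparison asks which members differ in HS livers from Con livers. Oat and Glul were higher in HS, Oat by the most of all members, and Slc1a2 and Znrf3 were called higher with less margin. Axin2, Nkd1, Slc1a4, Rhbg and Tbx3 did not pass the test. In all, 4 of 9 members were called, all higher, where 17.7% of all tested genes were called (15.9% higher and 1.87% lower). Because RNA of whole liver was measured, fewer cells of a type and less RNA per cell cannot be told apart, here and below.

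Oat read 72.76, 81.62 and 79.87 RPKM in the 3 Con libraries and 352.96, 505.21 and 514.49 RPKM in the 3 HS libraries. Every HS library was far above every Con library. The group means were 78.1 ± 4.69 and 457.6 ± 90.7 RPKM (SD, n = 3), a ratio of 5.86, and on the scale of log2(RPKM + 1) the difference was 2.52 (SE 0.227, adjusted p = 1.48e-05 by limma). The call held when any 1 of the 6 libraries was left out (difference 2.42 to 2.69).

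Glul read 186.19, 166.90 and 180.53 RPKM in Con and 251.06, 354.13 and 230.32 RPKM in HS. The groups did not overlap, and HS replicate 2 was the highest of all 18 libraries. The difference was 0.62 (SE 0.134, adjusted p = 0.00747), or 1.57 as a ratio of means, and it was 0.43 without HS replicate 2, still called. With only the 6 libraries of HS and Con in the fit, Glul was not called (adjusted p = 0.0682). With the medians of the libraries over the tested genes set equal (called scaling to the median here), the difference of Glul was 0.43 and no longer called (adjusted p = 0.0631).

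Slc1a2 read 12.77, 15.96 and 14.47 RPKM in Con and 18.94, 21.34 and 21.50 RPKM in HS. The groups were apart, with a difference of 0.49 (SE 0.149, adjusted p = 0.0346). This call was held in 2 of the 6 fits that left out 1 library and was lost without Con replicate 1, Con replicate 3, HS replicate 2 or HS replicate 3 (highest adjusted p = 0.131). Slc1a2 was not called after scaling to the median (0.31, adjusted p = 0.222).

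Znrf3 read 0.86, 1.06 and 1.11 RPKM in Con and 1.36, 1.55 and 1.49 RPKM in HS, again without overlap. Its difference of 0.30 (adjusted p = 0.0495) was called in none of the 6 fits that left out 1 library (adjusted p = 0.0607 to 0.177). Nkd1, the other inhibitor of this size, read 0.78, 1.04 and 0.91 RPKM in Con and 1.25, 1.32 and 1.24 RPKM in HS and was not called (0.25, adjusted p = 0.0702). Oat, Glul, Slc1a2, Znrf3 and Nkd1 are the 5 tested members with no overlap between HS and Con, where 36.8% of all tested genes had none. Without Con replicate 3 and A10 replicate 3, Oat (2.53, adjusted p = 5.34e-04) and Glul (0.63, adjusted p = 0.0372) were called, and Slc1a2 (0.50, adjusted p = 0.102) and Znrf3 (0.33, adjusted p = 0.0950) were not.

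Lgr5 read 1.08, 0.91 and 0.83 RPKM in Con and 1.30, 1.61 and 1.13 RPKM in HS. Every HS library was above every Con library. In the fit of 17837 genes without a minimum, the difference was 0.27 (SE 0.0735, adjusted p = 0.0346).

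Axin2, a widely used reporter of Wnt signalling, read 1.72, 2.02 and 2.02 RPKM in Con and 2.52, 1.97 and 2.03 RPKM in HS, overlapping groups with a difference of 0.12 (95% interval -0.16 to 0.40, adjusted p = 0.551). Tbx3 read 6.06, 7.09 and 6.89 RPKM in Con and 6.84, 7.73 and 6.20 RPKM in HS, also overlapping (0.04, 95% interval -0.36 to 0.45, adjusted p = 0.894). The sign of both small differences turned after scaling to the median (-0.01 and -0.12). Rhbg ran from 5.92 to 11.05 RPKM in Con and from 6.66 to 15.97 RPKM in HS, a wide spread, and was not called (0.37, adjusted p = 0.302). HS replicate 1 was the lowest HS library of Rhbg, and without it the difference was 0.70 (adjusted p = 0.0355).

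The direction of calls over all genes depends on the scaling in this comparison. The median difference of all tested genes was 0.14, and 89.4% of the 1809 calls were higher in HS. After scaling to the median the median was -0.01, 884 genes were called and 45.0% of them were higher. Of the members, Oat was then the only one called (2.33, adjusted p = 7.30e-05). The median over the 9 tested members was 0.30 as deposited and 0.19 after scaling, so it lay above the all-gene median under both.

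Some markers of other cells moved with HS too, where 15.9% of all tested genes were called higher. The summed level of 8 stellate cell and fibroblast markers was 116 to 187 RPKM in HS and 75.6 to 86.7 RPKM in Con, with 2 of 8 called higher (Dcn and Reln). Dcn made up most of it, at 112.39, 140.46 and 99.02 RPKM in HS and 61.57, 71.61 and 61.37 RPKM in Con. Col3a1 read 5.96, 19.61 and 4.21 RPKM in HS, so that replicate 2 was well above the others. The sum of 5 red cell genes was 2886 to 10041 RPKM in HS and 1256 to 1972 RPKM in Con, with 1 of 4 tested called higher (Hba-a1). The sum of 12 genes of central vein and sinusoidal endothelium was 49.7 to 55.8 RPKM in HS and 42.9 to 49.5 RPKM in Con, with 2 of 8 tested called higher (Rspo3 and Pecam1). After scaling to the median, Dcn (adjusted p = 0.00194) and Rspo3 (adjusted p = 0.0394) were still called. Reln (adjusted p = 0.0507), Hba-a1 (adjusted p = 0.0784) and Pecam1 (adjusted p = 0.252) were then not called. Without that scaling, 0 of 8 Kupffer cell markers and 0 of 4 tested bile duct markers were called in either direction. No gene of the stellate or endothelial list was at 0 in any library, and Hbb-bt and Hba-a2 of the red cell list were at 0 in some. Their part in the members' values was not tested.

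**Figure D2:**
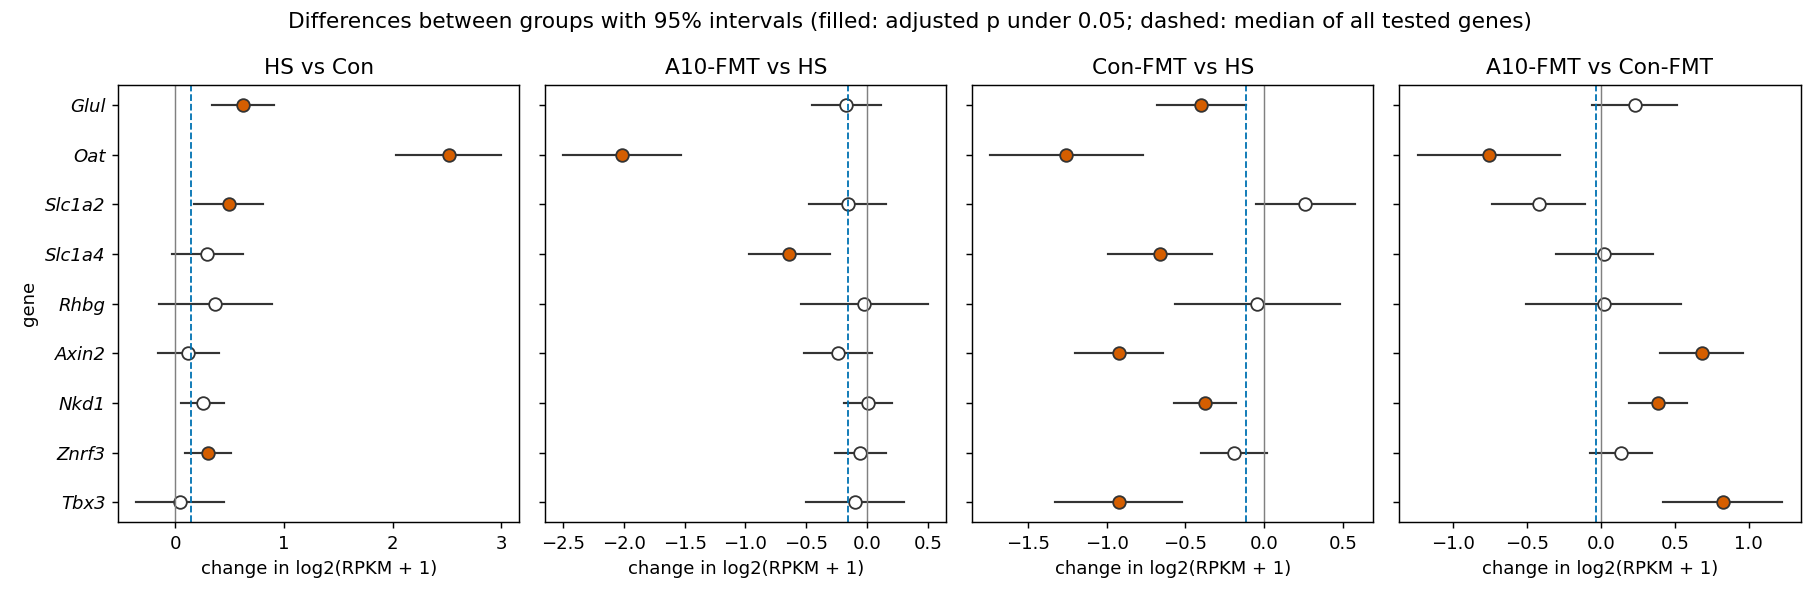
Difference in log2(RPKM + 1) of the 9 tested members in 4 comparisons, with 95% intervals; filled points passed an adjusted p of 0.05 and the dashed line is the median of all tested genes. Oat lies at 2.52 in HS against Con, while Axin2 (-0.92), Tbx3 (-0.92) and Nkd1 (-0.38) lie below 0 in Con-FMT against HS and above 0 in A10-FMT against Con-FMT.

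The next comparison sets recipients of the AOS-donor microbiota beside HS. Oat was lower in A10-FMT than in HS, and so was Slc1a4, while Glul, Slc1a2, Axin2, Nkd1, Znrf3, Tbx3 and Rhbg did not pass the test. The count was 2 of 9 members, both lower, against 23.1% of all tested genes called (21.0% lower and 2.09% higher).

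Oat read 101.12, 84.19 and 160.53 RPKM in A10-FMT, all below the lowest HS library at 352.96 RPKM. The mean of HS was 3.97 times that of A10-FMT, with a difference of -2.01 (SE 0.227, adjusted p = 1.85e-04). All A10-FMT libraries were also above the Con libraries, which reached 81.62 RPKM.

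Slc1a4 read 1.24, 1.04 and 1.09 RPKM in A10-FMT and 2.68, 2.14 and 2.12 RPKM in HS. The groups did not overlap (-0.64, SE 0.155, adjusted p = 0.0102), and the call held in each fit that left out 1 library. After scaling to the median the adjusted p was 0.0504. Oat and Slc1a4 are the only tested members without overlap here, where 37.4% of all tested genes had none.

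Glul read 253.31, 217.32 and 260.44 RPKM in A10-FMT, overlapping HS (-0.17, 95% interval -0.46 to 0.11, adjusted p = 0.359). All 3 A10-FMT libraries were above the highest Con library at 186.19 RPKM. Axin2 read 1.75, 2.17 and 1.22 RPKM and Tbx3 read 6.16, 9.40 and 4.37 RPKM in A10-FMT. For both genes replicate 2 was the highest and replicate 3 the lowest, and neither differed from HS by the test (adjusted p = 0.195 and 0.718). Nkd1 at 1.34, 1.16 and 1.36 RPKM lay around the HS values (0.01, 95% interval -0.19 to 0.21). Lgr5 read 0.85, 0.85 and 0.96 RPKM, below every HS library (-0.31, adjusted p = 0.0155 in the fit without a minimum).

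Of the 2358 genes called here, 9.03% were higher in A10-FMT, and after scaling to the median 55.3% of 1155 were. The all-gene median went from -0.16 to 0.00 with that scaling. The differences of Glul (0.02), Slc1a2 (0.02), Tbx3 (0.07), Rhbg (0.15) and Znrf3 (0.06) then turned to above 0, none of them called. Kupffer cell markers moved with the group: 5 of 8 were called lower in A10-FMT, whose sums were 46.2 to 58.7 RPKM against 68.4 to 115 RPKM in HS. Endothelial markers were called lower for 5 of 8 tested, with sums of 35.3 to 45.5 RPKM against 49.7 to 55.8 RPKM in HS. Of 4 red cell genes 1 was called lower (Hba-a1, -1.83, adjusted p = 0.0182), with sums of 1135 to 2049 RPKM against 2886 to 10041 RPKM in HS. Dcn of the stellate list (-0.48, adjusted p = 0.0120) and Sox9 of the bile duct list (-0.57, adjusted p = 0.00490) were lower too. After scaling to the median, Sox9 and 1 of the 8 Kupffer markers were called lower, and none of the endothelial, red cell or stellate genes was. Their part in the members' values was not tested.

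In recipients of the control-donor microbiota more members were below HS, among them both members called in A10-FMT. Axin2, Tbx3, Nkd1, Slc1a4, Oat and Glul were all lower in Con-FMT than in HS, which is 6 of 9 members, where 23.6% of all tested genes were called (19.0% lower and 4.61% higher). Slc1a2, Rhbg and Znrf3 were not called. The median over the 9 members was -0.40, and that over all tested genes was -0.12.

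Axin2 read 0.67, 0.64 and 0.71 RPKM in Con-FMT against 2.52, 1.97 and 2.03 RPKM in HS. These 3 libraries were close to each other and were the lowest of all 18, the next being A10-FMT replicate 3 at 1.22 RPKM. The mean of HS was 3.23 times that of Con-FMT. The difference was -0.92 (SE 0.132, adjusted p = 2.97e-04), and with a pseudocount of 0.1, which compresses low values less, it was -1.55.

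Tbx3 read 3.19, 2.99 and 3.32 RPKM in Con-FMT and 6.84, 7.73 and 6.20 RPKM in HS. It too had its 3 lowest libraries in Con-FMT, with HS at 2.19 times the mean and a difference of -0.92 (SE 0.189, adjusted p = 0.00323). Nkd1 read 0.75, 0.66 and 0.84 RPKM against 1.25, 1.32 and 1.24 RPKM in HS (-0.38, SE 0.0925, adjusted p = 0.00916). Lgr5 read 0.56, 0.49 and 0.53 RPKM, the lowest values of that gene in any library (-0.62, adjusted p = 2.16e-04 in the fit without a minimum, and 9.09e-04 without Con-FMT replicate 3).

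Axin2, Tbx3 and Nkd1 were called in each of the 6 fits that left out 1 library. Without Con-FMT replicate 3, the library with pancreatic RNA, the differences were -0.94 for Axin2 (adjusted p = 8.70e-04), -0.95 for Tbx3 and -0.41 for Nkd1 (both adjusted p = 0.00781), Slc1a4 and Oat were called as well, Glul was not (adjusted p = 0.0715), and Znrf3 was called lower (-0.29, adjusted p = 0.0280). After scaling to the median they were -0.84, -0.82 and -0.31, and all were called. After quantile normalization Nkd1 was at -0.17 and not called (adjusted p = 0.159), while Axin2 and Tbx3 were.

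Slc1a4 read 0.67, 1.43 and 1.24 RPKM in Con-FMT and was lower than in HS (-0.66, adjusted p = 0.00709). With only the 6 libraries of Con-FMT and HS in the fit, neither Slc1a4 (adjusted p = 0.0559) nor Nkd1 (adjusted p = 0.0598) was called. Oat read 133.84, 225.48 and 221.26 RPKM, lower than in HS (-1.26, adjusted p = 0.00143) and above every Con library. Glul read 190.43, 223.48 and 209.81 RPKM, just below the lowest HS library at 230.32 RPKM (-0.40, adjusted p = 0.0430). The call of Glul was held in 2 of 6 fits that left out 1 library and was lost without HS replicate 2 or any 1 of the Con-FMT libraries, and after scaling to the median (-0.28, adjusted p = 0.163). These 6 called members are the ones without overlap, as were 35.0% of all tested genes.

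Slc1a2 read 19.20, 25.07 and 31.87 RPKM in Con-FMT, with the highest value of all 18 libraries in replicate 3. Its difference from HS was 0.26 (95% interval -0.05 to 0.58, adjusted p = 0.217), and 0.09 without replicate 3, while without Con-FMT replicate 1 it was 0.44 and called (adjusted p = 0.0356). Rhbg at 10.12, 12.14 and 10.24 RPKM lay within the HS range. Of the 2413 genes called in this comparison, 19.5% were higher in Con-FMT, and after scaling to the median 40.9% of the 2098 calls were. Markers of other cells moved here as well. Of 8 stellate cell and fibroblast markers 3 were called lower in Con-FMT, with sums of 90.6 to 107.5 RPKM. Of 4 red cell genes 3 were called lower (Hba-a1, Hbb-bs and Hbb-bt). The sums of that list, 876 to 3619 RPKM, overlapped those of HS (2886 to 10041 RPKM). Hbb-bs did not follow Hba-a1 in every library: Con-FMT replicate 1 read 1.17 RPKM of Hbb-bs and 3473.53 RPKM of Hba-a1. Of 8 endothelial markers 2 were called lower and 1 higher, and their sums of 39.1 to 55.3 RPKM overlapped those of HS. Without Con-FMT replicate 3, 1 of the stellate and 0 of the red cell genes were called, and 1 endothelial gene in each direction. Their part in the members' values was not tested.

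The direct comparison of both recipient groups tests whether their livers differ. Each transplant came from 1 pool, so donor treatment and pool cannot be told apart. Axin2, Tbx3 and Nkd1 were above Con-FMT in A10-FMT, and Oat was below it, which is 4 of 9 members against 18.8% of all tested genes (6.72% higher and the rest lower). The difference was 0.68 for Axin2 (SE 0.132, adjusted p = 0.00255), 0.82 for Tbx3 (SE 0.189, adjusted p = 0.00749) and 0.39 for Nkd1 (SE 0.0925, adjusted p = 0.00956). As ratios of means these were 2.54, 2.10 and 1.72. For each of these genes every A10-FMT library was above every Con-FMT library, where 31.5% of all tested genes had no overlap (12.1% in this direction). The calls held with any 1 library left out and after scaling to the median (0.73, 0.89 and 0.43). With only the 6 libraries of both groups in the fit, Axin2 was called and Tbx3 (adjusted p = 0.0678) and Nkd1 (adjusted p = 0.0660) were not.

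Lgr5 pointed the same way in the fit without a minimum (0.31, adjusted p = 0.0176, and 0.0418 without Con-FMT replicate 3). Oat differed by -0.76 (SE 0.227, adjusted p = 0.0303), but its groups overlapped, as A10-FMT replicate 3 read 160.53 RPKM and Con-FMT replicate 1 read 133.84 RPKM. That call was held in 2 of 6 fits that left out 1 library and was lost after scaling to the median (-0.68, adjusted p = 0.0505). Without Con-FMT replicate 3 the differences were 0.70 for Axin2 (adjusted p = 0.00621), 0.85 for Tbx3 (adjusted p = 0.0173), 0.42 for Nkd1 (adjusted p = 0.00839) and -0.64 for Oat (adjusted p = 0.0993). Slc1a2 differed by -0.42 without passing the test (adjusted p = 0.0599). Its difference was -0.25 (adjusted p = 0.241) without Con-FMT replicate 3, and ranged from -0.60 to -0.25 over the 6 fits that left out 1 library, of which 2 called it. Glul differed by 0.23 (95% interval -0.06 to 0.51). The share of calls higher in A10-FMT was 35.8%, and 57.6% after scaling to the median.

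A comparison of Con-FMT with Con, added after the values were seen, places the low members against untreated livers. Axin2 (-0.80, adjusted p = 4.98e-04) and Tbx3 (-0.88, adjusted p = 0.00321) were below Con as well, while Oat (1.26, adjusted p = 9.58e-04) and Slc1a2 (0.75, adjusted p = 0.00184) were above it. These were 4 of 9 members, where 25.8% of all tested genes were called (14.4% higher and 11.5% lower). No overlap was found for 6 of the 9, where 39.4% of all tested genes had none. The Con mean was 2.85 times the Con-FMT mean for Axin2 and 2.11 times for Tbx3. Without Con-FMT replicate 3 the same 4 were called, with -0.82 for Axin2 (adjusted p = 0.00156), -0.91 for Tbx3 (adjusted p = 0.00895), 1.15 for Oat (adjusted p = 0.00536) and 0.58 for Slc1a2 (adjusted p = 0.00831). Nkd1 overlapped between these groups (-0.13, 95% interval -0.32 to 0.07). Lgr5, in the fit without a minimum, was below Con too (-0.34, adjusted p = 0.00602, and 0.0180 without Con-FMT replicate 3). The calls of Axin2, Tbx3, Slc1a2 and Oat were also made after scaling to the median (-0.85, -0.94, 0.69 and 1.19), which moved the share of calls higher in Con-FMT from 55.6 to 42.2%.

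Given directly, AOS was followed by no call among the members. In HS+A10 against HS, 0 of 9 members were called by limma (0 also at an unadjusted p under 0.05), where 7.32% of all tested genes were called (2544 at an unadjusted p under 0.05). Oat read 392.84, 378.72 and 343.93 RPKM in HS+A10, within or just below the HS range and far above every Con library. Glul read 257.13, 310.77 and 314.26 RPKM. Slc1a2 read 22.89, 21.91 and 26.15 RPKM, all above the HS libraries, the only member without overlap there (27.4% of tested genes had none). Axin2 read 2.08, 2.81 and 3.15 RPKM and Tbx3 read 6.51, 9.79 and 10.36 RPKM. Lgr5, from the fit without a minimum, was not called (-0.23, adjusted p = 0.104), although its unadjusted p was under 0.05. Replicates 2 and 3 held the highest Axin2 and Tbx3 values of all 18 libraries, and replicate 1 lay among the HS libraries.

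In A10 against Con, 0 of 9 members were called (0 at an unadjusted p under 0.05), and 0.0686% of all tested genes were, which is 7 genes, with 1418 at an unadjusted p under 0.05. The A10 libraries read 177.42, 177.37 and 170.59 RPKM for Glul and 91.62, 68.78 and 76.09 RPKM for Oat, overlapping Con, and no tested member was without overlap (24.8% of tested genes were). The test of whether AOS acted differently with and without the diet and STZ called 0 of 9 members (0 at an unadjusted p under 0.05) and 0.00980% of all tested genes, with 1320 at an unadjusted p under 0.05. Lgr5, in the fit without a minimum, had an unadjusted p under 0.05 there and was not called (adjusted p = 0.397).

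The order of the group means shows the members' profiles side by side. For Oat it was HS, HS+A10, Con-FMT, A10-FMT, A10 and Con, and of these neighbours only HS+A10 and Con-FMT did not overlap. For Glul it was HS+A10, HS, A10-FMT, Con-FMT, Con and A10, with a gap only between Con-FMT and Con. For Slc1a2 it was Con-FMT, HS+A10, HS, A10-FMT, Con and A10, with gaps between HS+A10 and HS and between A10-FMT and Con. The first place of Con-FMT for Slc1a2 goes with replicate 3 at 31.87 RPKM, and its other libraries lie among or near those of HS+A10 and HS. For Axin2, Tbx3 and Lgr5 the last place was held by Con-FMT, apart from its neighbour, and no other neighbours in their orders were apart. For Nkd1 the gap lay between HS and A10, and for Slc1a4 between A10 and A10-FMT. Rhbg and Znrf3 had no gap between neighbours.

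Across the 18 libraries, which share groups, diets and depth, the levels on the log2 scale of Axin2 and Tbx3 had a Pearson r of 0.93, those of Glul and Oat 0.80, and those of Slc1a2 and Oat 0.76. Axin2 had an r of 0.15 with Oat and -0.25 with Slc1a2. Over the 17 libraries without Con-FMT replicate 3 these were 0.92, 0.81, 0.83, 0.21 and -0.035 in the same order. The plot of both pairs shows that the groups make much of these relations.

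**Figure D3:**
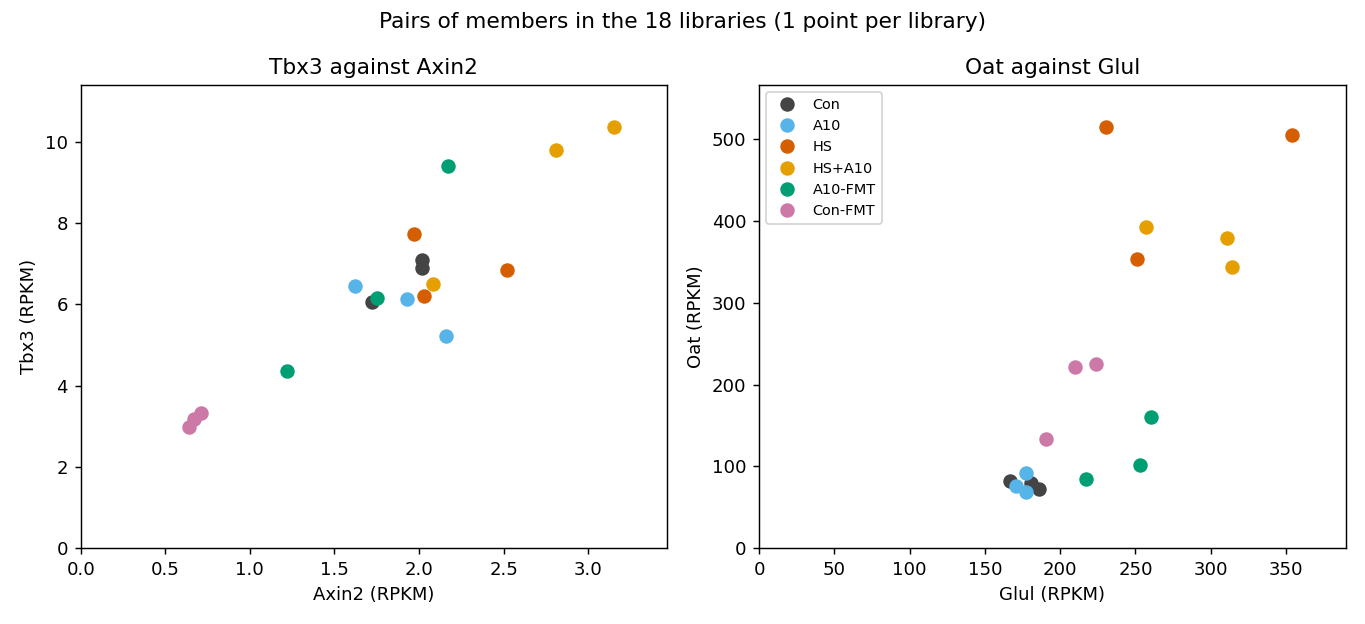
Tbx3 against Axin2 (left) and Oat against Glul (right) in RPKM, with 1 point per library coloured by group and axes from 0. The 3 Con-FMT libraries lie together at Axin2 of 0.64 to 0.71 RPKM and Tbx3 of 2.99 to 3.32 RPKM, and the HS and HS+A10 libraries lie at Oat of 344 RPKM or more.

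The genes whose levels were most like those of Glul over the 18 libraries were Ppic (r = 0.91), Rgs5 (0.90), Olfml3 (0.89), Cldn2 (0.88) and Ccdc80 (0.88). Those most like Oat, the member with the smallest p in the F test, were Lhpp (0.98), Wwp2 (0.93), Mdm2 (0.93), Pitpna (0.92) and Hgd (0.92). No other member was in either list of 5.

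The rest of the Wnt pathway was read from 4 lists of ligands, receptors, core components and inhibitors, of which 30 genes were tested. In Con-FMT against HS, 14 of the 30 were called lower and 1 was called higher (Lgr4, an R-spondin receptor, named after its value was seen: 0.37, adjusted p = 0.0106), with a median of -0.34. In A10-FMT against HS, 4 of the 30 were called lower and 2 higher, with a median of -0.14. The backgrounds are 19.0% lower and 4.61% higher for Con-FMT, and 21.0% lower and 2.09% higher for A10-FMT. Without Con-FMT replicate 3, 15 of the 30 were called lower in Con-FMT than in HS and 1 higher, with a median of -0.38. The genes named below as lower or higher than HS in Con-FMT were called there too, apart from Gsk3b, Btrc and Axin1, whose single calls there were not looked at. The calls after scaling to the median were 12 lower and 1 higher in Con-FMT, and 3 lower and 3 higher in A10-FMT. Of the 10204 tested genes, 1240 were then lower and 858 higher in Con-FMT, and 516 lower and 639 higher in A10-FMT.

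Among ligands and their release, 4 of 13 genes were tested. Rspo3, the R-spondin of central vein endothelium, was higher in HS than in Con (0.47, adjusted p = 0.00406) and lower than in HS in A10-FMT (-0.35, adjusted p = 0.0126) and Con-FMT (-0.47, adjusted p = 0.00202). It read 2.01, 1.72 and 2.09 RPKM in Con and 2.88, 3.70 and 2.65 in HS. Recipients read 2.01, 1.96 and 1.80 (Con-FMT) or 2.04, 2.26 and 2.22 RPKM (A10-FMT), so that both recipient groups overlapped Con. After scaling to the median the A10-FMT difference was -0.21 and not called (adjusted p = 0.159). Porcn, the enzyme that adds a lipid to Wnt proteins, was lower in Con-FMT than in HS (-0.59, adjusted p = 0.0150). Wnt2 and Wnt9b, Wnt ligands of liver endothelium named after their values were seen, were under the minimum and were not tested. Wnt9b read 0.30 to 0.38 RPKM in HS, 0.08 to 0.17 in Con-FMT and 0.07 to 0.15 in A10-FMT. Wnt2 read 0.49 to 1.30, 0.21 to 0.49 and 0.37 to 0.57 RPKM in the same order.

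Of 11 receptor genes tested, 4 were lower and 1 was higher in Con-FMT than in HS. Rnf43, which with Znrf3 clears Frizzled from the membrane and is itself a Wnt target, read 4.0, 3.51 and 2.79 RPKM in HS. In Con-FMT it read 1.90, 1.16 and 2.37, and in A10-FMT 5.24, 4.66 and 5.23 RPKM. It was lower in Con-FMT than in HS (-0.67, adjusted p = 0.00729), just past the threshold higher in A10-FMT (0.45, adjusted p = 0.0499), and above Con-FMT by 1.13 there (adjusted p = 3.17e-04). In HS+A10 it was higher than in HS (0.65, adjusted p = 0.0253). Fzd1, a Wnt receptor, was lower in Con-FMT (-0.55, adjusted p = 0.00288), and the co-receptor Lrp5 was below HS in both recipient groups (-0.59 in Con-FMT and -0.82 in A10-FMT).

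In the list of beta-catenin, its destruction complex and TCF factors, 7 of 14 tested genes were lower in Con-FMT than in HS and none was higher. Tcf7l1 (-0.96, adjusted p = 6.98e-05), Tcf7l2 (-0.68, adjusted p = 8.72e-04) and Dvl1 (-0.43, adjusted p = 0.00148) had the smallest p. The first pair are TCF factors, and Dvl1 passes the signal on from Frizzled. Tcf7l2, the main TCF of liver, read 4.0, 4.48 and 3.72 RPKM in HS. In Con-FMT it read 1.72, 2.24 and 2.58, and in A10-FMT 3.83, 3.51 and 4.36 RPKM. The difference between the recipient groups was 0.63 (adjusted p = 0.00166), with every Con-FMT library the lower. Tcf7l1 (-0.57) and Dvl1 (-0.42) were below HS in A10-FMT too. Genes of the destruction complex were also among the 7 lower in Con-FMT, named after their values were seen. They were Gsk3b (-0.37, adjusted p = 0.00393), Btrc (-0.45, adjusted p = 0.0116) and Axin1 (-0.31, adjusted p = 0.0459, and 0.187 after scaling to the median). Beta-catenin itself (Ctnnb1) was not called (-0.18, adjusted p = 0.196). The list pools genes that pass the signal on with genes that act against it, so its count gives no direction of signalling.

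Only 1 of 13 secreted or feedback inhibitors was tested: Notum, an enzyme that strips the lipid from Wnt proteins. It read 18.23, 14.17 and 15.59 RPKM in HS, 13.04, 8.26 and 12.44 with Con-FMT, and 19.26, 16.56 and 18.41 with A10-FMT. Notum was lower in Con-FMT than in HS (-0.49, adjusted p = 0.0328, and 0.0881 after scaling to the median), and A10-FMT was above Con-FMT by 0.66 (adjusted p = 0.00865).

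**Figure D4:**
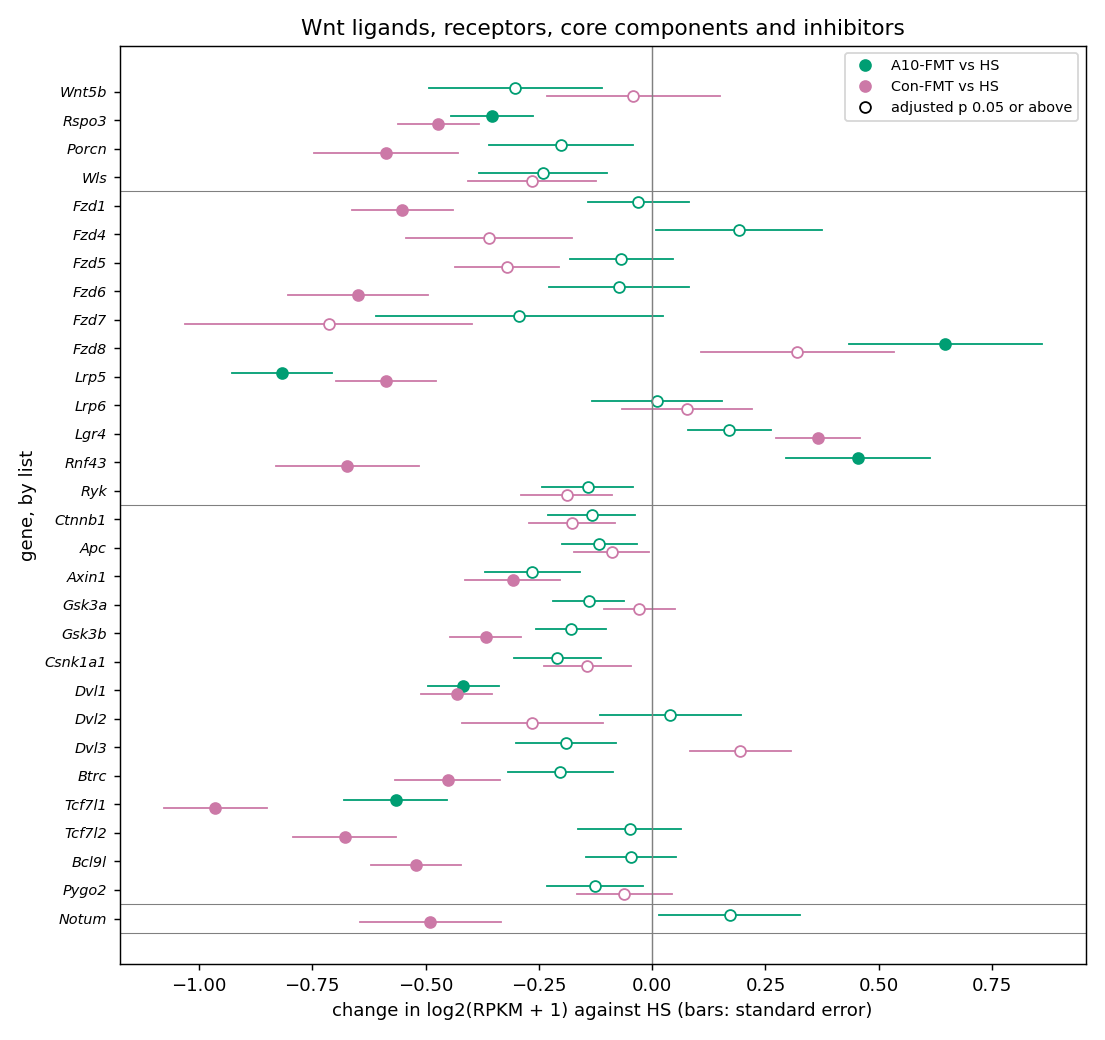
Difference from HS in log2(RPKM + 1) of 30 tested genes of 4 Wnt lists (ligands, receptors, core components and inhibitors, separated by lines), with bars of 1 standard error; filled points passed an adjusted p of 0.05. In Con-FMT 14 genes are called lower and 1 higher, and in A10-FMT 4 are called lower and 2 higher.

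Pericentral genes outside the members were counted in the same way. Of 20 such genes, all tested, 3 were higher and 1 was lower in Con-FMT than in HS (2 and 0 without Con-FMT replicate 3), where 4.61% of all tested genes were higher and 19.0% lower. Cyp2e1, the ethanol-oxidising cytochrome, read 4009.50, 3649.71 and 3013.84 RPKM in HS and 5319.29, 5125.12 and 5385.88 RPKM in Con-FMT (0.58, adjusted p = 0.00525). It was also higher in A10-FMT (0.80, adjusted p = 0.00119) and HS+A10 (0.72, adjusted p = 0.00562) than in HS. Lect2, a secreted hepatocyte protein, was higher than HS in both recipient groups (0.55 in Con-FMT and 0.79 in A10-FMT). In A10-FMT against HS, 5 of the 20 were higher and 1 was lower, where 2.09% and 21.0% of all tested genes were. In Con-FMT against Con, 11 were higher and 4 lower (9 and 4 without Con-FMT replicate 3), where 14.4% and 11.5% of all tested genes were. In HS against Con, 8 of the 20 were higher and 2 were lower (15.9% and 1.87% of all tested genes). Cldn2, a tight-junction protein, was at 0.68 (adjusted p = 3.91e-04), Cyp2c37 at 1.93 and Cyp2e1 at 0.71. After scaling to the median 4 of the 20 were higher and 2 lower, where 398 of the 10204 tested genes were higher and 486 lower.

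Periportal genes, from the other end of the lobule, gave 6 of 22 higher and 0 lower in HS than in Con (15.9% and 1.87% of all tested genes), led by Pck1, an enzyme of gluconeogenesis (1.72, adjusted p = 3.03e-06). They gave 8 of 22 lower in A10-FMT and 6 of 22 lower in Con-FMT than in HS, with none higher, where 21.0% and 19.0% of all tested genes were lower. These counts after scaling to the median were 4 higher in HS than in Con, 3 lower and 1 higher in A10-FMT and 5 lower in Con-FMT. Of the 10204 tested genes, 398 were then higher and 486 lower in HS than in Con. In A10-FMT 516 were then lower and 639 higher than in HS, and in Con-FMT 1240 lower and 858 higher. Without Con-FMT replicate 3, 7 of the 22 were lower in Con-FMT than in HS. Beside the members, 16 tested genes handle glutamate, glutamine and ornithine. Of these, 6 were higher and 0 lower in HS than in Con (15.9% and 1.87% of all tested genes). After scaling to the median these counts were 5 and 1. Slc25a22, a mitochondrial glutamate carrier (1.45, adjusted p = 1.39e-06), Slc7a2, a carrier of ornithine and other cationic amino acids (1.69, adjusted p = 3.75e-05), and Slc25a15, the mitochondrial ornithine carrier (0.79, adjusted p = 0.00105), had the smallest p. Slc25a22 was below HS in Con-FMT (-0.80), A10-FMT (-0.94) and HS+A10 (-0.49), each called. In Con-FMT it was the only gene of this list called lower than HS, and 2 were higher: Slc38a2, a glutamine carrier (1.19, adjusted p = 3.24e-04), and Slc7a2 (0.61, adjusted p = 0.0164, and 0.0527 without Con-FMT replicate 3). In A10-FMT 4 of the 16 were lower than HS and 1 was higher, and after scaling to the median 3 were lower and 3 higher. Without that scaling, 19.0% of all tested genes were lower and 4.61% higher in Con-FMT than in HS, and 21.0% and 2.09% in A10-FMT.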

How the data were processed

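Poly(A) RNA was sequenced in 18 mouse liver libraries, and the values analysed are RPKM with 2 decimals, as deposited by the authors. Per the study's methods the reads were mapped to reference genes with SOAPaligner, while the submitters' processing notes name Bowtie 0.12.2 and mm10; which of the aligners gave these values was not settled here. RPKM sums were 692818 to 806937 per library. The number of reads is unknown, but steps in 34 low genes (tolerance 0.12 of a step) put relative depth at 0.957 to 1.04, so no counting interval is given. Of 19057 symbols, 26 had turned into dates and 3 occurred more than once. The 10204 genes that averaged 1 RPKM or more were fitted as log2(RPKM + 1) with limma 3.58.1 in R 4.3.3 (1 mean per group, trended variance, all 18 libraries). Benjamini-Hochberg adjusted p-values over all tested genes were called under 0.05, and all are two-sided. The log2 scale with a pseudocount of 1 understates changes of low genes. Gene positions and promoter windows came from RefSeq tables of GRCm38.p6. Figures were drawn with matplotlib 3.10.9 in Python 3.11.15.

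Alternatives were a pseudocount of 0.1, no minimum, scaling to the median, quantile normalization, a replicate block, no variance trend, fewer groups in the fit, and leaving out each library. A fit without Con replicate 3 and A10 replicate 3, the comparison of Con-FMT with Con, and the fits of the other lists and Lgr5 without Con-FMT replicate 3 or with other scalings were chosen after seeing the data. The members and lists were chosen with earlier results of these data known. All members are named. Of other lists the 3 genes with the smallest adjusted p per comparison could be named, marker genes where a list moved, and the 5 genes most correlated with Glul and with 1 further member.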

Additional observations from a re-analysis of the deposited data

Results flagged for a closer look

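The recipient groups differed from each other for 4 members, by the direct test of A10-FMT against Con-FMT. Each transplant came from 1 pool, so donor treatment and pool cannot be told apart. The log2 difference was 0.68 for Axin2, 0.82 for Tbx3, 0.39 for Nkd1 and -0.76 for Oat. Axin2, Tbx3 and Nkd1 had no overlap between the recipient groups, and Oat had. Groups of 3 libraries were not tested for single outlying libraries.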

How the results depend on the processing

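The members' differences were tallied in HS against Con, A10-FMT against HS, Con-FMT against HS, A10-FMT against Con-FMT and Con-FMT against Con. Under all alternatives, 586 kept their direction and their side of the threshold, 51 lost and 8 gained a call, and 35 turned in sign. The 586 include Lgr5 in each of these comparisons, where its value without a minimum was set against itself and there was no main call to keep. No minimum, a replicate block, no variance trend and fewer groups in the fit cannot change the size of a difference, only its call. The same holds for the fit without Con replicate 3 and A10 replicate 3 in comparisons that involve neither Con nor A10. Turns of sign in HS+A10 against HS, A10 against Con and the AOS effect with and without HS were not tallied or listed. Where a value below moved, the cause was not tested, except that fits with fewer libraries have less to estimate the spread from. A pseudocount of 0.1 gave 4 genes for the AOS effect with and without HS, and no minimum gave 2 there and 18 in A10 against Con. Scaling to the median gave 884 genes and 1 member in HS against Con, and 1155 genes and 1 member in A10-FMT against HS. Uncalled differences that turned with it were Axin2 (-0.0067) and Tbx3 (-0.12) in HS against Con, Glul (0.022), Tbx3 (0.067), Slc1a2 (0.025), Rhbg (0.15) and Znrf3 (0.058) in A10-FMT against HS, and Rhbg (0.063) in Con-FMT against HS. Quantile normalization gave 876 genes and 2 members in HS against Con and 1114 genes and 1 member in A10-FMT against HS. It turned Axin2 (-0.0064) and Tbx3 (-0.12) in HS against Con, Tbx3 (0.073), Slc1a2 (0.0052), Rhbg (0.14) and Znrf3 (0.12) in A10-FMT against HS, Rhbg (0.046) and Znrf3 (0.0047) in Con-FMT against HS, and Slc1a4 (-0.0017) in A10-FMT against Con-FMT, none called. The share of calls that were higher was then 55.5% in HS against Con, 51.4% in A10-FMT against HS and 44.6% in Con-FMT against HS. With only the 2 compared groups in the fit, genes and members called were 566 and 2 in HS against Con, 798 and 3 in Con-FMT against HS and 685 and 1 in A10-FMT against Con-FMT, and genes were 814 in A10-FMT against HS, 57 in HS+A10 against HS and 38 in A10 against Con. With 12 libraries (Con, HS, A10-FMT and Con-FMT) HS against Con had 1001 genes and 2 members. Without Con replicate 3 and A10 replicate 3 there were 697 genes and 2 members in HS against Con, 351 genes in HS+A10 against HS, 1626 in Con-FMT against Con, 0 in A10 against Con (729 at an unadjusted p under 0.05) and 0 for the AOS effect with and without HS (884 at an unadjusted p under 0.05). Leaving out 1 library each time gave 845 to 1597 genes and 2 to 4 members in HS against Con (845 without Con replicate 1, 933 without Con replicate 3, 1067 without HS replicate 2), 1295 to 2584 genes and 2 members in A10-FMT against HS (1295 without A10-FMT replicate 3, 1334 without A10-FMT replicate 2, 1484 without HS replicate 2, 1531 without HS replicate 3), 1755 to 2276 genes and 5 to 6 members in Con-FMT against HS, 1176 to 1638 genes and 3 to 5 members in A10-FMT against Con-FMT (1176 without A10-FMT replicate 2), and 1879 to 2499 genes and 4 to 5 members in Con-FMT against Con. It gave 159 to 1239 genes in HS+A10 against HS (lowest without HS+A10 replicate 1, highest without HS replicate 1), 0 to 73 in A10 against Con (770 to 1016 at an unadjusted p under 0.05 where none was called, and 73 without Con replicate 2), 0 to 118 for the AOS effect with and without HS (118 without HS replicate 1, 0 without HS replicate 3 with 1071 at an unadjusted p under 0.05), each with 0 members, and 5085 to 5816 genes and 7 to 8 members in the F test. The differences that turned in such fits ranged from -0.29 to 0.015 for Glul, -0.014 to 0.050 for Nkd1, -0.36 to 0.22 for Rhbg and -0.35 to 0.13 for Tbx3 in A10-FMT against HS, -0.12 to 0.12 for Rhbg and -0.14 to 0.13 for Slc1a4 in A10-FMT against Con-FMT, -0.37 to 0.20 for Rhbg in Con-FMT against HS, and -0.029 to 0.11 for Tbx3 in HS against Con. Deviations of samples with the same number had r of -0.126 to 0.262 over 45 pairs (median 0.00669, 12 over 0.1). Among the highest were HS with HS+A10 (0.227 for replicate 1 and 0.262 for replicate 3) and HS with A10-FMT (0.164 and 0.213). For replicate 2 these pairs were at -0.0258 and -0.0932. Whether the numbers pair the libraries was thus not settled. With a replicate block the genes called were 1695, 2238, 2326 and 1816 in HS against Con, A10-FMT against HS, Con-FMT against HS and A10-FMT against Con-FMT, with 3, 2, 5 and 5 members; Znrf3 in HS against Con and Glul in Con-FMT against HS lost their calls and Slc1a2 gained one in A10-FMT against Con-FMT.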
